A study of Mus musculus with 6 samples.

Results

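The genes described here are 10 brakes and outputs of the ERK branch of MAP kinase signalling: the phosphatase genes Dusp1, Dusp4, Dusp6 and Dusp7, the inhibitor genes Spry1, Spry2, Spry4 and Spred1, and the transcription factor genes Etv4 and Etv5. They were taken as a fixed list of symbols out of 18193 genes that the arrays name. All probe sets annotated to exactly 1 of these symbols were read, 26 in all, on each of the 6 arrays. The list was drawn up with the contrast between the groups already known, so for its members that contrast is given as a description and supports no claim.

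Growth factors such as EGF and FGF, on which neural stem cells in culture usually depend, bind receptor tyrosine kinases and switch on Ras, Raf, MEK and ERK in turn. Active ERK then induces genes that hold it back. Dual-specificity phosphatases remove phosphate from the MAP kinases themselves, Sprouty and Spred proteins act higher up between receptor and Raf, and the ETS factors Etv4 and Etv5 carry the signal to other promoters. Because their transcripts rise and fall with ERK activity, several of these genes are commonly read as a gauge of it, although each has other inputs as well.

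Total RNA came from mouse neural stem cell lines, 3 described as FoxO null and 3 as FoxO wild type, and the series text calls the 6 lines independent. Each line was hybridised once, from 6 ug of RNA, so there are 3 arrays per group. The labels name no agent, time, strain, age, culture medium or allele, and do not say which FoxO genes the null lines lack. FoxO proteins are transcription factors that growth factor signalling through Akt keeps out of the nucleus.

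Array medians were between 25.5 and 32.8 signal units. The highest of 27 Bacillus subtilis control probe sets, used as each array's background, was between 14.4 and 27.6. It was higher on the FoxO-null arrays, at 19.2, 27.6 and 26.9, than on the wild-type arrays, at 14.4, 15.8 and 19.1. The same signal can therefore be under background in the first group and above it in the second. Of 9 probe sets for Foxo1, Foxo3 and Foxo4, 8 read higher in the null group and 5 of these without overlap, which goes against the labels. Whether these probe sets lie in deleted sequence is not known here. For that reason the groups are named below by label only, as null-labelled and wild-type-labelled lines, and every direction rests on the labels. The array of wild-type 1 stood apart in its 18S rRNA 5′ control, 211 against 23.5 to 38.9 elsewhere, and FoxO-null 3 correlated least well with its best match (r = 0.953 across genes). Wild-type 3 was close to it, at 0.958. Wild-type 1 had the lowest array median, 25.5, and FoxO-null 3 the highest, 32.8. All 10 neural stem cell markers, among them Nes, Sox2 and Fabp7, were above background on the 6 arrays. Summed signals of the 5 measured of 6 oligodendrocyte lineage markers did not overlap between the groups. They were 11423 to 12889 in the null-labelled lines and 10002 to 11293 in the wild-type-labelled ones. Of these markers Mbp (means 4429 against 2976) and Sox10 (729 against 383) were higher in the null-labelled lines without overlap. The brightest, Olig1, leaned the other way (6703 against 7099) with overlap. Cspg4 also overlapped, and Mog was under background on each array. The part of these markers in the values below was not tested. Sums of 6 neuronal markers (229.5 to 316 against 273 to 298) and 5 astrocyte markers (2833 to 3643 against 2170.2 to 3057) overlapped. The brightest astrocyte marker, Aldh1l1, sets most of that sum; Aqp4, at 167, 130.5 and 142 against 60.5, 72.4 and 90.1, and Gfap were higher in the null-labelled lines without overlap. So were 4 of the 10 stem cell markers, by 0.67 on the log2 scale for Nr2e1, 0.51 for Msi1, 0.41 for Prom1 and 0.38 for Slc1a3, and in the other direction the neuronal markers Tubb3 and Syt1. The stem cell markers Nes (means 826 against 1069) and Vim (10853 against 11584) leaned lower in the null-labelled lines, with overlap. Summed signals of the 10 stem cell markers overlapped, at 31812.5 to 35215 against 25203 to 33388. These markers were picked out after their values were seen, none passed in the limma fit described below, and their part in the values was not tested. Of 5 microglial markers Aif1, Ptprc and Tyrobp were at or under background on all 6 arrays. So were Pecam1 and Tek of 4 endothelial and Dcn of 5 fibroblast markers. The microglial marker Csf1r, at 47.5 to 73.4, and the fibroblast marker Col1a2, at 23.3 to 81.6, were above background on all 6 arrays. The remaining markers of these lists, among them the endothelial Kdr, were above it on some arrays.

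Start regions were looked up because several members read lower together. The RefSeq promoter table for GRCm38.p6 held 8 windows for 7 of the 10 genes, each running from 250 bases before to 50 bases after an annotated start; Dusp4, Spry4 and Etv4 had none. The 250 bases before the start are shown for Dusp6 and Spry1, the members with a window that read lower in all null-labelled lines, and for Dusp1 and Etv5, which did not. All these stretches lie outside the annotated gene, directly before its first base, and are written 5′ to 3′ on the gene's strand. Capitals mark matches to the motifs named after them.
Dusp6, chr10:99262981-99263230, plus strand: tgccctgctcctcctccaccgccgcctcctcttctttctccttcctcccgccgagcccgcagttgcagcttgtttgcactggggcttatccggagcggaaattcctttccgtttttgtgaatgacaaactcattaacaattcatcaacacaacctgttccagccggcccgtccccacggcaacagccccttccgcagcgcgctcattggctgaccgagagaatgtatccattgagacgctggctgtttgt
Spry1, chr3:37639697-37639946, plus strand: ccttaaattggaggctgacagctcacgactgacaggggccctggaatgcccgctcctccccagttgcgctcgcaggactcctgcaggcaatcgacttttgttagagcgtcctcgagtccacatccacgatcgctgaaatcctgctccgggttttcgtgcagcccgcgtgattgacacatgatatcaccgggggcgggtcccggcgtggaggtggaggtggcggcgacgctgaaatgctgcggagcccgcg
Dusp1, chr17:26508473-26508722, minus strand: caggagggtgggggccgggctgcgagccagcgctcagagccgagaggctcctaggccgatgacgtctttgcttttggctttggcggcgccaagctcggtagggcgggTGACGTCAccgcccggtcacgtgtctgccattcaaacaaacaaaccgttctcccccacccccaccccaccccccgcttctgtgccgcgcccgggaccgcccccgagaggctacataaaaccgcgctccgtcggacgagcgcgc
Etv5, chr16:22439571-22439820, minus strand: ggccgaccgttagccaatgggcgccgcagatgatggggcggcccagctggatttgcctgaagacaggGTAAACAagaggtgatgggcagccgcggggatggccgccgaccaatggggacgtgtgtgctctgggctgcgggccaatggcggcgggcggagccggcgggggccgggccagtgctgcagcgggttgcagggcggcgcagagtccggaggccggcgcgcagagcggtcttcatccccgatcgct

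The motifs searched on both strands included TGAATGAA and TGAATGGA, bound by the repressor Capicua that ERK relieves, and the ETS motif GGAAGT. The others were the cAMP response element TGACGTCA, the AP-1 site TGANTCA and the forkhead site GTAAACA. None of these 6 motifs lies within another. Neither Capicua motif, nor the AP-1 site, was found in the 8 member windows, and over all 32851 windows of the table they occurred in 1.3%, 1.21% and 7.81%. Dusp1 held the palindromic cAMP response element at position -143 relative to its start, a motif present in 1.79% of windows. The upstream Etv5 window held the forkhead site at position -183, against 3.65% of windows. A second Etv5 window inside the gene, not printed, held the ETS motif at positions -217 and 2, against 23.8% of windows. The windows of Dusp6 and Spry1 held none of the 6 motifs, and neither did those of Dusp7, Spry2 and Spred1, which says only that these letters are not in those stretches.

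Dusp6 and Dusp4 had the largest negative differences of the 10 genes. Dusp6 encodes a cytoplasmic phosphatase specific for ERK. In lines 1 to 3 of the null-labelled group it gave signals of 472, 619.8 and 398, and in lines 1 to 3 of the other group 750.1, 831 and 1007. Each null-labelled line was below each wild-type-labelled line, FoxO-null 2 and wild-type 1 being nearest to each other. The group means were 496 ± 113 and 863 ± 131 (SD, n = 3 lines each), and the log2 difference, FoxO-null minus wild-type, was -0.80 ± 0.17 (standard error of the fit). Here and below log2 differences are of signal plus an offset of 5.94, which shrinks the change of dim genes. In whole cultures, fewer cells of a type and less RNA per cell cannot be told apart.

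Dusp4 encodes a nuclear phosphatase of ERK and JNK. It read 227, 213 and 196 in the null-labelled lines and 304, 315 and 364 in the wild-type-labelled ones. The groups were well apart and narrow, averaging 212 ± 15.5 and 328 ± 31.8 (SD), and differed by -0.61 ± 0.13 on the log2 scale. Its spread within groups, an SD of 0.12 on the log2 scale, was below the median of 0.24 over the genes tested.

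The other phosphatase genes showed no such gap. Dusp1, an early response gene whose nuclear product acts on p38 and JNK as well as ERK, read 285, 221 and 289 against 225, 248 and 204. The groups overlapped, with FoxO-null 2 among the wild-type values, and the log2 difference was 0.22 ± 0.15. Dusp7, a cytoplasmic ERK phosphatase like Dusp6, read 186, 184 and 218 against 176, 198 and 171 in the brightest of its 3 probe sets, differing by 0.11 ± 0.14. Its other probe sets leaned the opposite way, at -0.14 ± 0.18 and -0.24 ± 0.25, so the data give no direction for Dusp7; the mean over its probe sets was -0.09. The probe set that stands for it is of the type whose probes may also match other transcripts.

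**Figure D1:**
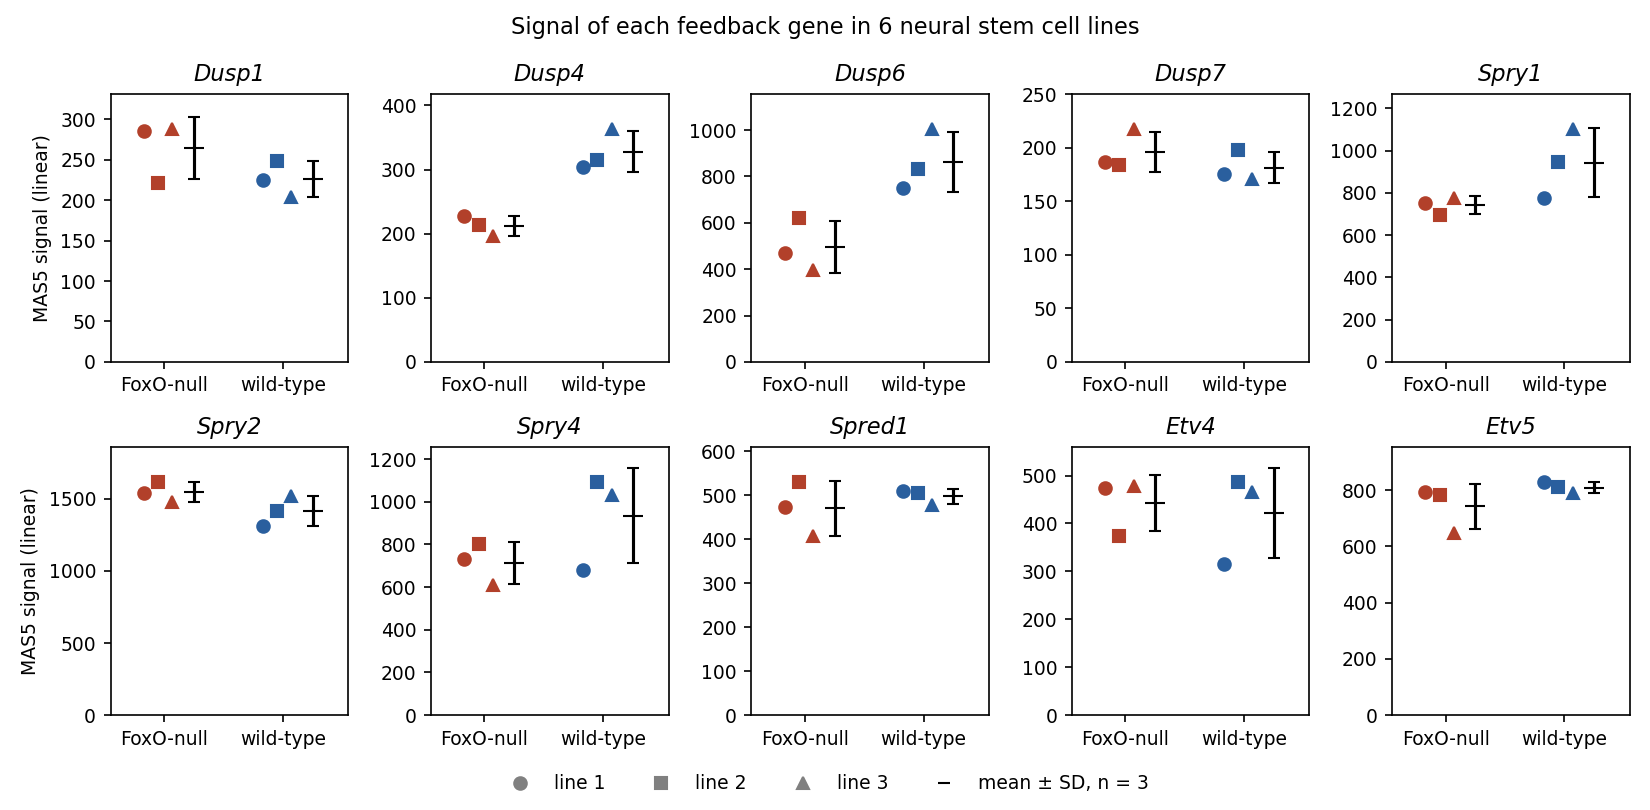
Linear MAS5 signal of the 10 genes (vertical axes, from 0) in null-labelled (red) and wild-type-labelled (blue) lines, with a marker shape per line number and black bars for the mean ± SD of 3 lines. Dusp4, Dusp6 and Spry1 have all 3 red points below all 3 blue points, and Spry4 and Etv4 have their lowest wild-type value in line 1.

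Among the Sprouty genes, Spry1 and Spry4 read lower and Spry2 did not. Sprouty proteins sit at the membrane and damp signalling from FGF and other receptors. Spry1 read 753, 695 and 776 in the null-labelled lines against 777, 944 and 1104. The groups were barely apart, with FoxO-null 3 just under wild-type 1, and the log2 difference was -0.33 ± 0.13. Without wild-type 1 it was -0.46, and without wild-type 3 it was -0.21.

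Spry4 read 730.1, 804 and 608 against 679, 1094 and 1032. Wild-type 1 lay inside the FoxO-null range and the other wild-type lines above it, so the groups overlapped, with a log2 difference of -0.36 ± 0.18. That difference was -0.58 without wild-type 1 and -0.24 without wild-type 2. All 4 Spry4 probe sets leaned the same way, from -0.36 to -0.49, and followed each other over the 6 lines with a median Pearson r of 0.75. One of them, which derives from a clone of its own, had groups that did not overlap: 158, 179.6 and 158 against 239.7, 264 and 204. A pair of the 4 come from 1 clone, so they were not taken as separate measurements of the gene. Whether their probes share sequence was not looked up.

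Spry2 read 1541, 1618 and 1479 against 1311, 1414 and 1518. Its groups overlapped at a log2 difference of 0.13 ± 0.11, and it was the steadiest member: 5.83% of the genes tested had a smaller spread within groups. The second Spry2 probe set was dim, at 27.3 to 62.3, and did not follow the first over the lines (r = 0.07).

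Spred1 has an EVH1 domain beside the Sprouty-related one and brings the Ras inhibitor neurofibromin to the membrane. Its brightest probe set read 473, 531 and 407 against 510.1, 504 and 478, with a log2 difference of -0.09 ± 0.12. This value turned to 0.01 without FoxO-null 3 and to 0.05 as the mean over its probe sets. Of 8 probe sets, 6 were above background on every array, and their differences ran from -0.09 to 0.36 with 1 of them negative. Several share a source clone. The Spred1 probe sets thus differed from each other by more than the groups differed in the brightest of them.

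The Etv genes differed little between the groups. Etv5 read 794, 784 and 648 against 829.8, 809.8 and 788 in its brightest probe set, where FoxO-null 1 reached into the wild-type range, and the log2 difference was -0.13 ± 0.11, or -0.04 without FoxO-null 3 and -0.05 as the mean over its probe sets. Its other probe sets stood at -0.02 ± 0.12 and -0.01 ± 0.17. Etv4 read 474, 375 and 479 against 314, 487 and 466, differing by 0.08 ± 0.17. Its wild-type 1 value was the lowest of the 6, and without that line the difference was -0.11. The dimmer Etv4 probe set leaned to -0.46 ± 0.35 and ran against the first over the lines (r = -0.46).

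**Figure D2:**
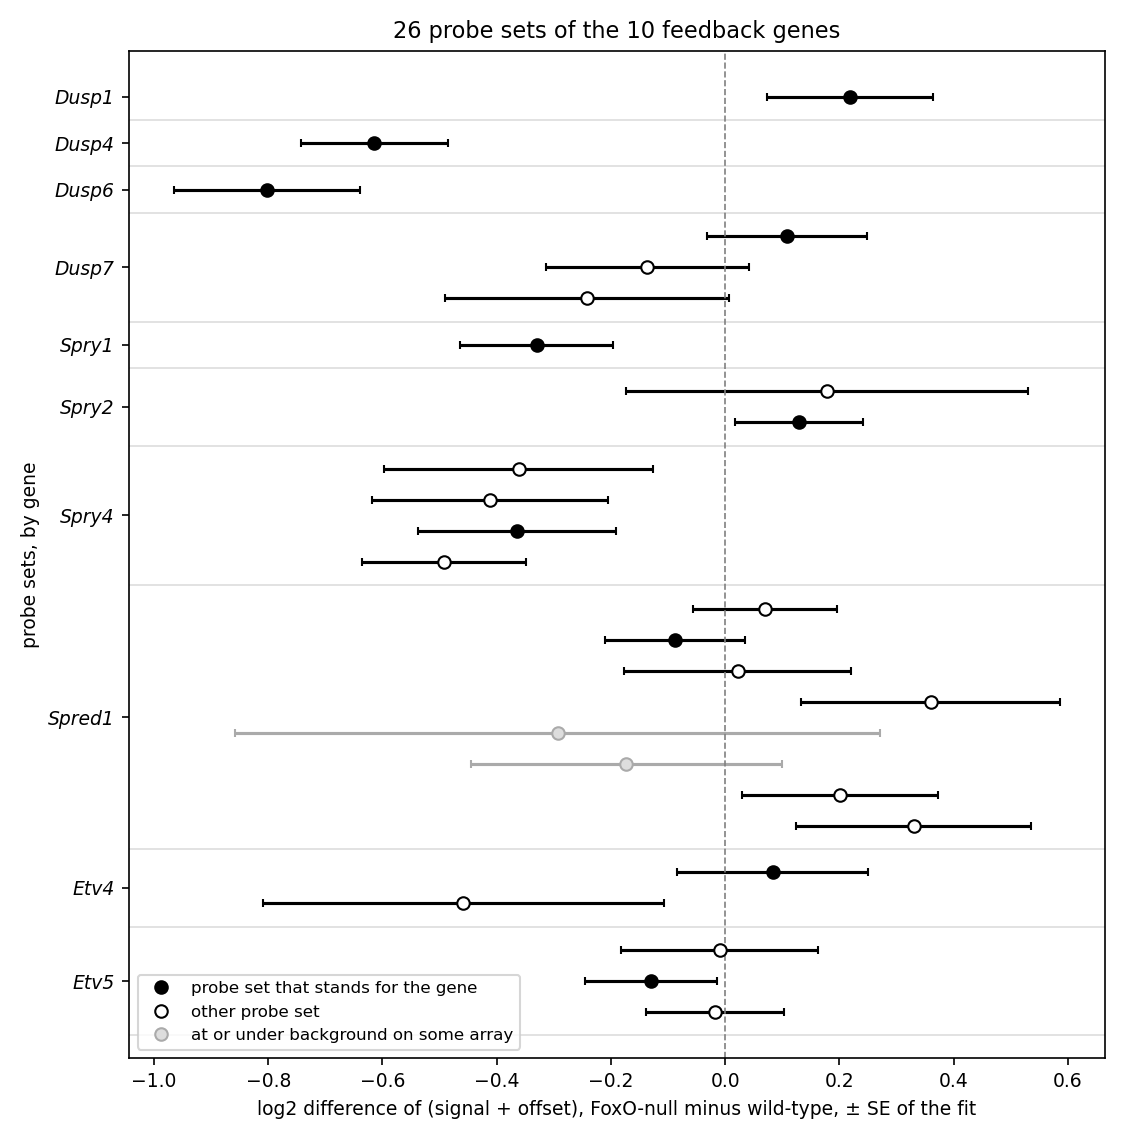
Log2 difference of signal plus offset, FoxO-null minus wild-type (horizontal axis), with the standard error of the fit, for each of 26 probe sets grouped by gene; filled points stand for the gene and grey ones were at or under background on some array. The 4 Spry4 probe sets lie between -0.49 and -0.36, while those of Dusp7, Spred1 and Etv4 fall on both sides of 0.

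As a set, 6 of 10 members had a negative difference, against 48.3% of the 12665 genes tested, and their median was -0.11 against 0.01. Without FoxO-null 3 the members' median was -0.01, as the middle members Spred1 and Etv5 moved to 0.01 and -0.04. Dusp6, Dusp4, Spry1 and Spry4 then stood at -0.66, -0.56, -0.36 and -0.25. Dusp1, Dusp7, Spry2 and Etv4 stayed positive. Groups did not overlap in 3 members, all lower in the null-labelled lines (Dusp4, Dusp6 and Spry1); over all genes tested 7.96% were lower and 8.08% higher without overlap. In the limma fit 0 members passed a Benjamini-Hochberg adjusted p under 0.05, a threshold that 0.0395% of genes passed, and 3 had an unadjusted p under 0.05 on the lower side, where 4.94% of genes did. Adjusted p-values ran from 0.136 for Dusp6 and 0.160 for Dusp4 to 0.910 for Etv4 in that fit. Since the contrast was known when the list was made, nothing is read from these counts.

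The members also varied among the lines of a group. Wild-type 1 had the lowest value of the wild-type lines in 6 members (Dusp4, Dusp6, Spry1, Spry2, Spry4 and Etv4), and FoxO-null 3 the lowest of its group in 6 (Dusp4, Dusp6, Spry2, Spry4, Spred1 and Etv5). Averaged over the 10 genes and set against the mean of the lines, wild-type 1 stood at -0.06 on the log2 scale, close to FoxO-null 1 and 2 at -0.05 and -0.07. Wild-type 2 and 3 stood at 0.16 and 0.17, and FoxO-null 3 at -0.15. For the 4 phosphatase genes alone wild-type 1 was at 0.05 and the null-labelled lines were between -0.17 and -0.11. Both arrays that deviate within their group are those named above for the 18S control, the lowest correlation and the lowest and highest medians. The part of this in the values was not tested.

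Dusp4, Dusp6, Spry1 and Spry4 went up and down together over the lines. The 6 pairs among them had Pearson r from 0.71 to 0.93 on the log2 scale, over 6 lines that share the group difference. With the group means taken out, r among these pairs ran from 0.26 to 0.72. Spry2, outside these 4, then had r of 0.90 with Dusp6, 0.85 with Spry4, 0.80 with Dusp4 and 0.65 with Spry1. With the group means left in, its r with them lay between -0.46 and 0.11. The 4 genes were thus no closer to each other within groups than to Spry2. Over all 45 pairs of members the median r was 0.03. Dusp1 ran opposite to Dusp6 (r = -0.85, and -0.85 with group means taken out), and with Dusp7 (0.78). Spred1 followed Etv5 (0.88). With 6 lines these are descriptions, and the 4 genes were picked out after their values were seen.

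**Figure D3:**
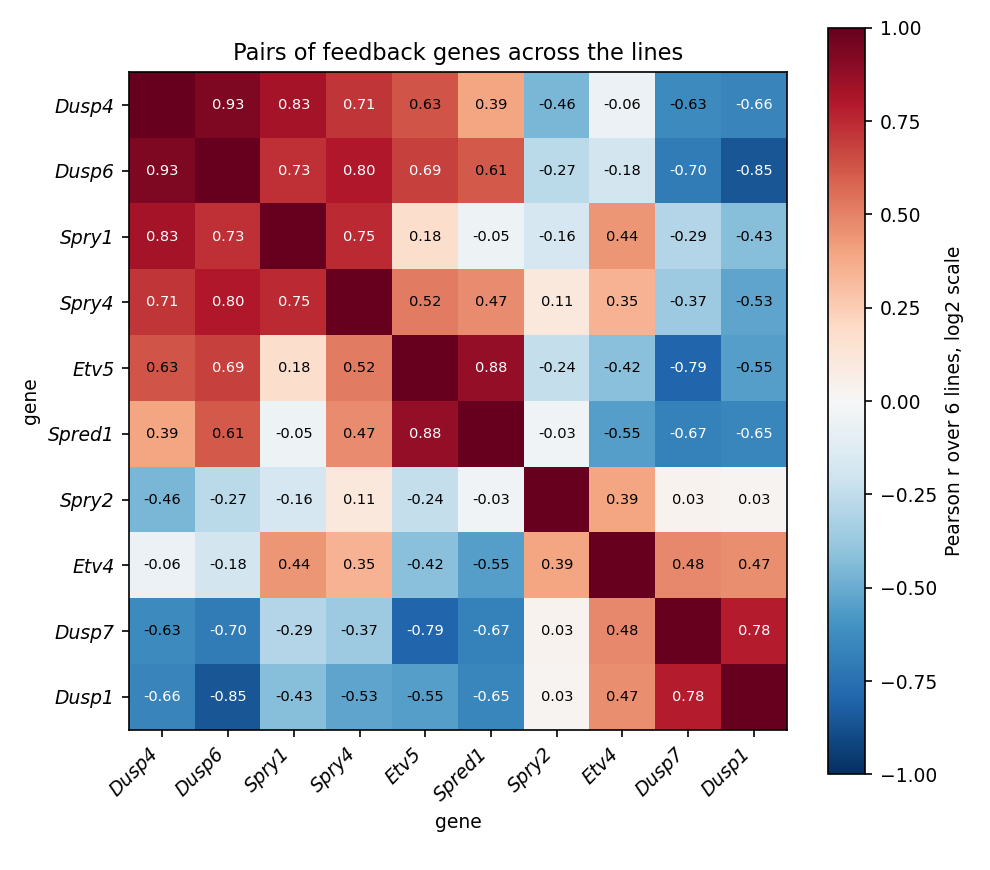
Pearson r over 6 lines between the log2 signals of each pair of members, coloured from -1 (blue) to 1 (red). Dusp4, Dusp6, Spry1 and Spry4 form a block of r from 0.71 to 0.93, and Dusp1 and Dusp7 are negative against Dusp4 and Dusp6.

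Of 11994 genes outside the list, with clone and predicted names left out, 90 (0.75%) had r of at least 0.9 with the mean of the members over the 6 lines. The members themselves had a median pair r of 0.03, so their mean is not a profile that all of them share. With this many genes ranked over 6 lines, the likeness is a description, and shared regulation was not tested. The 5 most alike were Fzr1 (0.99), Slc19a3 (0.98), and Cbwd1, Safb2 and Shc1 (0.97 each). Shc1, the adaptor that couples receptors to Ras, read 135, 111 and 101 in the null-labelled lines against 116, 173 and 189. Fzr1, an activator of the anaphase-promoting complex, read 265, 261 and 254 against 269, 326 and 337. Like the member mean, both were lower on wild-type 1 than on the other wild-type arrays. The 5 most opposite were Ppfia4 (-0.99) and Tspan13, Il2rb, Inpp5a and Fam185a (-0.98 each). Some of these 10 genes were dim. Slc19a3, at 18.5, 14.9 and 12.6, was under background on all null-labelled arrays. Cbwd1 was under it on the arrays of FoxO-null 2 and 3, at 26.8 and 24.8. Il2rb was under it on those of wild-type 2 and 3, at 5.62 and 4.17, and on that of FoxO-null 2, at 25.1.

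Across the rest of the pathway 98 genes outside the members were tested, from lists chosen by function. The limma fit called 0 of them, and 12 had an unadjusted p under 0.05, with 5 of these positive and 7 negative. Their median log2 difference was 0.04, with 58 positive. Several medians of the lists described below changed sign with the setting. With the arrays centred on their medians, those of the cascade, the ETS and Capicua genes (0.05 each) and the other inhibitors (0.06) turned to -0.02, -0.02 and -0.01, and the ETS median was also -0.02 with quantile normalization and -0.01 with the higher filter. As the mean over all probe sets of a gene, the medians of the receptors, the inhibitors and the cascade were -0.06, -0.02 and -0.0078. The ETS median was -0.07 when FoxO-null 1 was left out and -0.12 for FoxO-null 2, and leaving out wild-type 1 gave -0.10, while it was -0.07 on leaving out wild-type 3. With the array of wild-type 1 removed, the inhibitors stood at -0.01 and the cascade at -0.0022.

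Of 12 receptor genes tested 10 were positive in their brightest probe sets, with a median of 0.19, and none passed. The median was 0.05 without wild-type 1 and, as given above, -0.06 over the means of all probe sets, so the list had no settled direction. Igf1r, the IGF1 receptor, read 767, 714 and 743 against 424, 592 and 439, and differed by 0.62 ± 0.14 on the log2 scale with no overlap (limma adjusted p 0.175). Fgfr3 differed by 0.59 ± 0.18 with overlapping groups (0.281). The receptors that neural stem cell media usually address were closer to 0: Egfr differed by 0.02 ± 0.12 and Fgfr1 by -0.15 ± 0.20. Fgfr1 was again lowest on wild-type 1, at 478 against 911 and 831 in the other wild-type lines.

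Of 20 ligand genes 11 were tested, 9 of them positive, with a median of 0.21. That median was 0.05 without wild-type 3 and 0.10 without FoxO-null 3. Egf at 0.65 ± 0.37 and Pdgfa at 0.33 ± 0.19 had the smallest p (limma adjusted p 0.588 and 0.598). Egf was dim, at 28.4, 38.3 and 29.5 against 15.8, 12.5 and 28.8, and under background in wild-type 2. Some other ligand genes were also under background on some arrays. Of 22 adaptor and kinase genes of the Ras, Raf, MEK and ERK cascade, 14 had a probe set named for them alone and were tested; their median was 0.05. The adaptor genes Gab1 at 0.29 ± 0.14 and Shc1 at -0.42 ± 0.20 had the smallest p (limma adjusted p 0.506 and 0.507). The p38, JNK and ERK5 kinases and their activators had a median of -0.05 over 15 genes (0.00090 without FoxO-null 1), with Map3k7 at -0.36 ± 0.14 and Map2k3 at -0.28 ± 0.14, neither overlapping (0.411 and 0.536).

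None of the other feedback genes passed. Of 6 further MAP kinase phosphatases 5 were tested. Dusp2, a nuclear phosphatase, read 8.01, 21.7 and 6.61 in the null-labelled lines, all at or under background, against 32.5, 26.6 and 34.4, so the wild-type-labelled lines exceeded them by at least 1.28-fold (limma adjusted p 0.401). That bound sets the geometric mean of the wild-type-labelled signals against that of the background levels of the null-labelled arrays. Those levels were the higher ones, and the 26.6 of wild-type 2 would be under background on the arrays of FoxO-null 2 and 3. Dusp16, which acts on JNK and p38, read 333, 392 and 344 against 322, 304 and 302, a difference of 0.20 ± 0.12 (0.612). The median of the 5 was -0.13, and it turned to 0.22 without FoxO-null 3, to 0.12 without wild-type 2 and to 0.03 with the filter left out or raised.

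Of 15 other receptor and Ras inhibitors 9 were positive, with a median of 0.06. Lrig1, which promotes receptor breakdown, read 1132, 1099 and 897 against 774, 880.4 and 839, and its groups differed by 0.32 ± 0.12 (adjusted p 0.392 in limma). The RasGAP gene Rasa1 differed by -0.21 ± 0.14. The 11 ETS and Capicua genes had a median of 0.05. Among them Ets1 read 80.1, 146.5 and 137 against 175, 178 and 251, a difference of -0.73 ± 0.23 without overlap (0.305). Ets2 differed by -0.53 ± 0.29 with overlap (0.561).

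None of the 19 other genes that ERK induces passed. At an unadjusted p under 0.05 in the limma fit, 4 were lower in the null-labelled lines and 1 was higher. The lower ones were Ccnd1, Myc, Egr1 and Ier2, and the higher one was Jun. Over all genes tested 4.94% were lower at that p. Egr1 differed by -0.55 ± 0.19 and Ier2 by -0.44 ± 0.19, both with overlap. Epha4 leaned higher and Phlda1 was near 0. Ccnd1, the cyclin D1 gene, had signals of 2863, 3487 and 2347 against 4277, 4870.1 and 4181 and differed by -0.63 ± 0.14 (limma adjusted p 0.187). Myc had 231, 185 and 156 against 325, 259.6 and 319, a difference of -0.65 ± 0.16 (0.212). Neither overlapped between the groups. Jun, a subunit of the AP-1 factor, read 718, 776.5 and 725 against 598, 653 and 599, a difference of 0.26 ± 0.11 with no overlap (0.424). The receptor gene Epha4 read 55.1, 51.1 and 60.3 against 37.5, 47.6 and 9.41, the last of these under background, and differed by 0.90 ± 0.42 (0.499). Egr1, Ier2, Jun and Epha4 were picked out after their values were seen. Phlda1, often read beside Dusp6 and Spry4 as a gauge of MEK output, differed by -0.08 ± 0.17. The median of the 19 was -0.05, with 10 negative, and it turned to 0.05 without FoxO-null 1 and stood at -0.25 without wild-type 1.

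**Figure D4:**
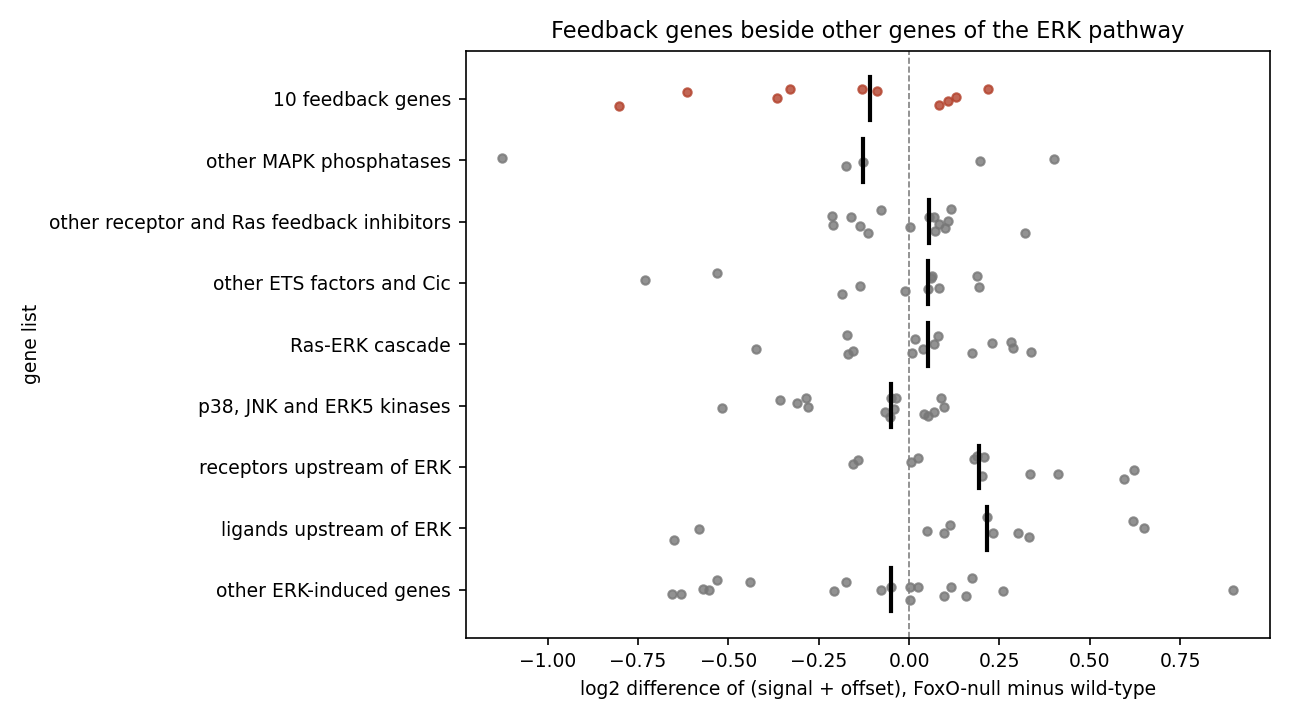
Log2 difference of signal plus offset, FoxO-null minus wild-type (horizontal axis), for each tested gene of the 10 feedback genes (red) and 8 other lists (grey), with a bar at each list's median. The medians lie at -0.11 for the feedback genes, 0.19 for receptors and 0.21 for ligands, and each list spans 0; the lowest phosphatase point is Dusp2, which was under background in the null-labelled lines.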

How the data were processed

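The authors used MAS5 to make the intensity values they deposited (version not given in the sources used here), per the submitters' processing notes; on each array their mean was 100 after trimming 2% at each end, so the deposited scaling was kept. No value column was left out. Of 45037 non-control probe sets, 34945 have 1 gene in the platform annotation; each gene was read from its brightest probe set by mean log2 value. Genes under the 40th percentile of mean log2 value, a signal of 16.2, were left out, and 12665 were tested.

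Signals were turned into log2(signal + 5.94), the 20th percentile of all values. FoxO-null was compared with wild-type by lmFit and eBayes with an intensity trend in limma 3.58.1 (R 4.3.3, with version 1.17.8 of the data.table package), without covariates, two-sided, with Benjamini-Hochberg adjustment over all genes tested. Values of single probe sets come from the same fit on all 45037 non-control probe sets. P-values treat the lines as independent, as the series text does, and the number of arrays limits the precision. On simulated data for this comparison, with 200 of 12665 genes changed in 10 simulations, 81.0% of genes changed 4-fold and 46.8% of those changed 2-fold were recovered, and 3.64% of calls were false.

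The members and the pathway lists were chosen with earlier results of these data known. Named genes followed a rule: the members, Foxo1, Foxo3, Foxo4, Ccnd1, Phlda1, Egfr and Fgfr1; up to 2 genes of smallest p per list where none passed; and the 5 most and least correlated genes. Dusp2, Dusp16 and the other list genes were named under it, except Egr1, Ier2, Jun and Epha4. Those were picked out after their values were seen. Promoter sequences are from RefSeq (GRCm38.p6), for which 1864 of 1864 overlapping windows on opposite strands matched as reverse complements. Alternatives changed the offset, filter, scaling, probe set rule, trend, replicate block, promoter window and the arrays included.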

Additional observations from a re-analysis of the deposited data

How the results depend on the processing

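Each member's log2 difference was recomputed under 15 alternatives. Dusp1, Dusp4, Dusp6, Spry1, Spry2, Spry4 and Etv5 kept their sign in all 15, with Dusp6 between -0.97 and -0.66 and Dusp4 between -0.68 and -0.54, and no member reached an adjusted p under 0.05 in any limma fit. Dusp7, Spred1 and Etv4 changed sign when all probe sets of a gene were averaged, to -0.09, 0.05 and -0.19, as did Spred1 without FoxO-null 3 (0.01) and Etv4 without wild-type 1 (-0.11). The count of genes passing over all genes, 5, was 1 with an offset of 1, with no filter, with quantile normalization or with the mean over probe sets, and 0 with median centring (1048 at an unadjusted p under 0.05) or without the intensity trend (1116). It ran from 0 to 13 when 1 array was left out: leaving out FoxO-null 1 gave 0 (819 unadjusted), FoxO-null 3 gave 1, wild-type 1 and wild-type 2 gave 3 each, and wild-type 3 gave 13. The cause was not tested. The count of pathway genes was 0 in every limma fit, with 7 to 15 at an unadjusted p under 0.05. With the replicate number as a block 6 genes passed over all genes and 0 members or pathway genes. Deviations from the group means correlated between same-numbered lines at 0.02, 0.09 and 0.12, not above 0.1 in every pair, and wild-type 1 correlated best with FoxO-null 2, so the numbers were not taken to pair the lines. Within 100 bases before the start 0 member windows held a motif, against 3 in the whole window, since the shorter stretch leaves out the matches.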
